A study of Homo sapiens with 2 samples.

Results

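The BCL2 family decides whether a cell's mitochondria release the proteins that start apoptosis, and 10 of its genes were examined in PLC, a cell line from human liver cancer. The genes were taken as a fixed list (BCL2, BCL2L1, MCL1, BAX, BAK1, BID, BAD, BBC3, PMAIP1 and BCL2L11) and looked up by name in both deposited tables. All 10 were found, among 26254 gene names present in both tables. RNA was sequenced from PLC cells carrying an empty vector (EV; genotype labelled WT, no treatment) and from PLC cells over-expressing PRSS35, a secreted protease, also with no treatment. Each condition has 1 library. Both stable lines were made with a lentiviral vector and puromycin selection, and whether they were pools or single clones is not given in the sources used here.

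The family has 3 kinds of member. BCL2, BCL2L1 (the gene of BCL-XL) and MCL1 hold the outer mitochondrial membrane intact. BAX and BAK1 are the effectors that open it and let out cytochrome c, which then activates caspases. The BH3-only proteins BID, BAD, BBC3 (PUMA), PMAIP1 (NOXA) and BCL2L11 (BIM) report stress to the family, either by occupying the anti-apoptotic proteins or by engaging the effectors. In hepatocytes, BCL-XL and MCL1 are the anti-apoptotic proteins best known to keep the cells alive, and BID carries the death receptor signal to mitochondria.

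What these 10 proteins have in common is the BH3 motif, a short helix whose core is a leucine followed, after 3 further residues, by a small residue and an aspartate. The core was searched in the translated canonical transcript (GENCODE v44lift37, GRCh37, the same assembly as hg19) as leucine, any 3 residues, then glycine, alanine or serine, then aspartate. It was found in 10 of 10 members, whose proteins range from 54 to 350 residues and whose genes lie on 8 chromosomes. This describes the members and is no test. They are known for this motif, the small residues allowed are those they carry, and no other proteins were searched. The 9 codons from the leucine onward are shown because they are the stretch that places such different proteins in 1 family. Each is written on the coding strand, with the leucine codon and the codons of the small residue and the aspartate in capitals, and each lies within 1 coding exon.
BCL2 (chr18:60985585-60985611, minus strand): CTCcgccaggccGGCGACgacttctcc
BCL2L1 (chr20:30309728-30309754, minus strand): CTGagggaggcaGGCGACgagtttgaa
MCL1 (chr1:150551344-150551370, minus strand): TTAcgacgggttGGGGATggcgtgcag
BAX (chr19:49459044-49459070, plus strand): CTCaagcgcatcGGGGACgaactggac
BAK1 (chr6:33543167-33543193, minus strand): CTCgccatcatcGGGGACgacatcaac
BID (chr22:18222184-18222210, minus strand): CTCgcccaggtcGGGGACagcatggac
BAD (chr11:64039097-64039123, minus strand): CTCcggaggatgAGTGACgagtttgtg
BBC3 (chr19:47729839-47729865, minus strand): CTGcggcggatgGCGGACgacctcaac
PMAIP1 (chr18:57569905-57569931, plus strand): CTCaggagatttGGAGACaaactgaac
BCL2L11 (chr2:111907680-111907706, plus strand): TTGcggcgtattGGAGACgagtttaac
The small residue was glycine in 8 members, serine in BAD and alanine in BBC3. BID held a second match of the same letters at residue 25, with serine in the small position. The one shown starts at residue 90.

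Levels are FPKM, the fragments of a gene scaled by transcript length and by the size of the library, so they can be compared between genes. Each FPKM was deposited with a lower and an upper bound, which Cufflinks sets 2 SD from the value and which cover counting and assignment error within a library. Variation between cultures was not measured, and with nothing to test against, p-values were not computed. Differences are log2((FPKM in PRSS35 + 1) / (FPKM in EV + 1)). Both are given with the interval that follows from these bounds. PRSS35 itself, the check of the labels, had an FPKM of 0.643 in EV and 1836 in PRSS35. Of 13 hepatocyte and liver cancer markers, 12 had a mean FPKM of at least 1, the exception being FGB. Transcripts of KRT8, KRT18 and SERPINA1 were the most abundant of these, while ALB was low at 4.05 in EV and 5.21 in PRSS35. The leukocyte genes PTPRC and CD3E were listed at 0 in both libraries, LYZ was at 94.0 and 103.7 FPKM, CD68 was at 297.3 and 277.9 at a locus joined with other genes in both, and the endothelial and fibroblast markers did not exceed 0.754.

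The family spanned a wide range of levels, in the same order in both libraries apart from 1 swap. In EV, BAD was highest at 492.7 FPKM, and was followed by BAX at 194.2, BCL2L1 at 145.1, BAK1 at 99.2, BID at 30.9 and MCL1 at 18.1. None of these 6 genes overlapped its neighbour in this order. BBC3 at 3.66, PMAIP1 at 3.47 and BCL2L11 at 2.71 came next, and each overlapped its neighbour. In PRSS35 the first 6 genes kept their order and again did not overlap. PMAIP1 at 5.40 then stood before BBC3 at 4.73, with overlapping intervals, and BCL2L11 at 1.52 lay below both. The highest of the 9 measurable members exceeded the lowest 181.5 times in EV and 271.2 times in PRSS35. BCL2, the founding gene of the family, was last in both libraries.

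**Figure D1:**
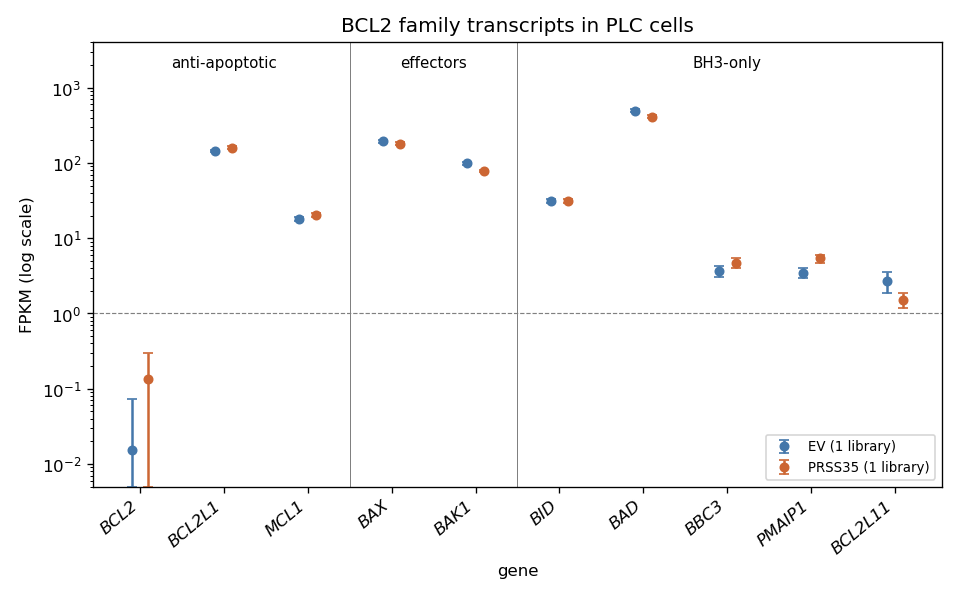
FPKM (log axis) of the 10 genes in the EV and PRSS35 library, grouped by role, with the Cufflinks interval as bars (a lower bound of 0 is drawn to the foot of the axis) and a dashed line at 1 FPKM. BAD, at 492.7 and 413.1 FPKM, stands highest and BCL2, under 0.3 FPKM at its upper bounds, stands lowest.

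Few genes differed by 2-fold between the 2 libraries, and no member was among them. Of the 9 members with a mean FPKM of at least 1, none was higher or lower by 2-fold in PRSS35, where 2.73% of 11115 expressed genes were higher and 2.48% were lower by that much. At 1.5-fold the number was also 0, where 5.23% of expressed genes were higher and 4.27% lower. That count rests on the pseudocount of 1 FPKM, since at 0.1 FPKM the log2 differences of PMAIP1 and BCL2L11 were 0.62 and -0.79, both past 1.5-fold. Differences ran from -0.56 for BCL2L11 to 0.52 for PMAIP1, with a median of 0.03 for the 9 members and 0.06 for all expressed genes. In size, regardless of direction, the median difference of all expressed genes was 0.17 and the upper quartile was 0.32. BAK1, PMAIP1 and BCL2L11 exceeded 0.32 in size, and the other members did not. Of the 9 members, 5 had the higher value in PRSS35, as did 60.2% of expressed genes. EV and PRSS35 had intervals apart for 5 of the 9 members, 2 of them higher in PRSS35 (BCL2L1 and PMAIP1) and 3 lower (BAK1, BAD and BCL2L11). With upper quartile scaling 1 was higher (PMAIP1) and 4 were lower, as BCL2L1 then overlapped and BAX did not. Among all expressed genes 40.6% had intervals apart, 25.1% higher and 15.5% lower. This share grew with the level, from 27.9% of genes between 1 and 10 FPKM to 61.2% of genes at 100 FPKM and over, and the 55.6% of the members lies in that range. The interval of the log2 difference itself left out 0 for 8 of the 9 members, against 53.7% of all expressed genes. The intervals of BCL2L1, MCL1 and BBC3 left out 0 but held 0.0626, the median difference of all expressed genes. Neither the count nor the share was computed after centring or by level.

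**Figure D2:**
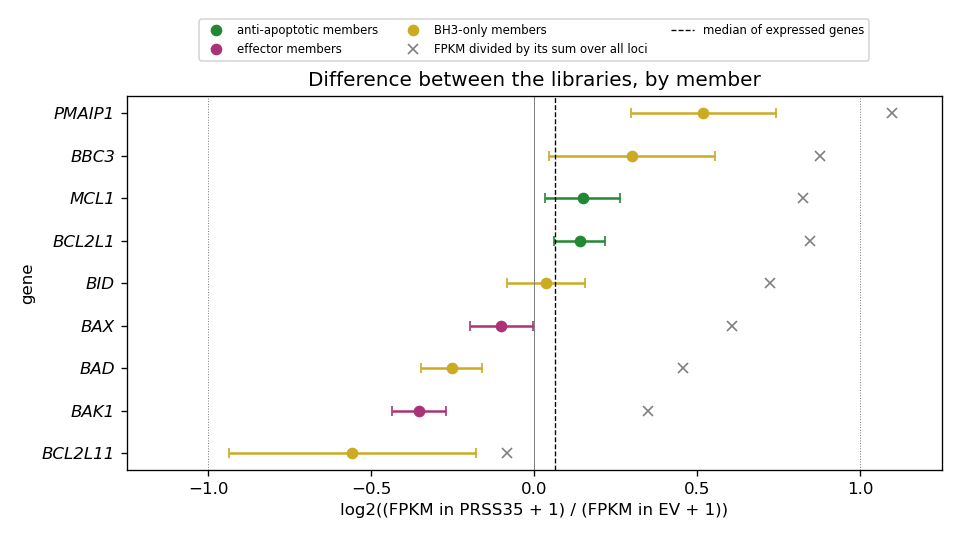
Log2 difference between PRSS35 and EV for the 9 members with a mean FPKM of at least 1 (points with intervals from the Cufflinks bounds, coloured by role), beside the value after division by the total FPKM of the library (crosses). Points run from -0.56 (BCL2L11) to 0.52 (PMAIP1), inside the dotted lines at 2-fold. The crosses are higher for every member and turn BAX, BAD and BAK1 from lower to higher.

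The direction of the small differences depended on how the libraries were put on a common scale. The loci of EV added up to 2469030 FPKM and those of PRSS35 to 1508529, and division by this total lifts the median log2 difference of all expressed genes from 0.06 to 0.68. BCL2L1, MCL1, BBC3 and PMAIP1 were higher in PRSS35, and BCL2L11 was lower, under each scaling tried, although after division by the total BCL2L11 was at -0.08 with overlapping intervals. BAX, BAK1 and BAD were lower except after division by the total, when they were higher. BID, at 0.03, came out below 0 after centring on the median gene or scaling by the upper quartile, and at 0.72 after division by the total. Ratios between members of a library do not depend on this choice, and are therefore given after each group.

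Among the anti-apoptotic genes, BCL2L1 supplied most of the transcript. BCL2L1 was at 145.1 FPKM (interval 139.3 to 151.0) in EV and at 160.0 (interval 154.1 to 165.9) in PRSS35, at percentile 89.7 and 90.6 of the expressed genes. The intervals did not overlap, and the log2 difference was 0.14 (interval 0.06 to 0.22). With upper quartile scaling it was 0.07 and the intervals overlapped. MCL1, a short-lived protein that NOXA targets for degradation, was at 18.1 FPKM (interval 17.0 to 19.2) in EV and at 20.2 (interval 19.0 to 21.3) in PRSS35. These intervals overlapped, and the log2 difference was 0.15 (interval 0.03 to 0.26). In both libraries the value belongs to an assembled locus named for both MCL1 and ADAMTSL4-AS1, from 150533371 to 150552214 on chromosome 1. ADAMTSL4-AS1 overlaps MCL1 on the same strand in GENCODE, and the 2 genes cannot be told apart in this value.

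BCL2 was close to absent. Its FPKM was 0.0153 (interval 0 to 0.0724) in EV and 0.137 (interval 0 to 0.2998) in PRSS35. From the width of these bounds, about 0.290 and 2.80 fragments lie behind the values, under the 3 fragments below which no fold is given. For comparison, the bounds of BCL2L1 correspond to about 2487 and 2957 fragments. Differences in BCL2 were thus not detectable at this depth. The ratio of BCL2L1 to MCL1 was 8.02 (interval 7.46 to 8.62) in EV and 7.94 (interval 7.41 to 8.50) in PRSS35, which overlap.

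In EV, the BCL2L1 locus shares 1347 bases with that of ABALON, a long noncoding RNA on the opposite strand. The BH3 codons printed above lie inside this stretch. ABALON was at 105.5 FPKM in EV and 103.8 in PRSS35. The library kit is not stated to keep strand, so fragments from this stretch could not be assigned by strand. ABALON's part in the difference of BCL2L1 was not tested.

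Both effectors were abundant. BAX, which moves from the cytosol to mitochondria on activation, was at 194.2 FPKM (interval 185.3 to 203.1) in EV and at 181.0 (interval 172.1 to 189.9) in PRSS35, at percentile 91.8 and 91.7. The intervals overlapped and the log2 difference was -0.10 (interval -0.20 to -0.0046). With upper quartile scaling it was -0.17 and the intervals were apart. BAK1, whose protein sits in the mitochondrial membrane already in healthy cells, was at 99.2 FPKM (interval 94.2 to 104.1) in EV and at 77.4 (interval 75.1 to 79.7) in PRSS35. Its intervals did not overlap, and the log2 difference was -0.35 (interval -0.44 to -0.27), or 0.35 after division by the total. Among expressed genes, 20.9% differed by at least as much in either direction.

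BAK1 was quantified on a locus assembled from the reads in EV and on the annotated gene in PRSS35. The half-width of its interval was 4.99% of the EV value and 2.94% of the PRSS35 value. This same pairing held for 1047 expressed genes above 0 in both tables. For these the median log2 difference was 0.02, 46.4% were lower in PRSS35 and 20.4% had intervals apart in that direction. Among the 6373 genes assembled in both libraries, 43.1% were lower and 18.5% were lower with intervals apart, and among the 2365 annotated in both these shares were 34.7% and 6.55%. The part of assembly in the difference of BAK1 was not tested.

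Relative to the effectors, the anti-apoptotic transcripts were higher in PRSS35. The summed FPKM of BCL2, BCL2L1 and MCL1 was 163.3 in EV and 180.3 in PRSS35, and that of BAX and BAK1 was 293.4 and 258.4. Their ratio was 0.556 (interval 0.529 to 0.585) in EV and 0.698 (interval 0.664 to 0.733) in PRSS35, a log2 difference of 0.33 (interval 0.23 to 0.43). The intervals did not overlap. The ratio of BCL2L1 to BAK1 moved from 1.46 (interval 1.37 to 1.56) to 2.07 (interval 1.97 to 2.17), and that of BCL2L1 to BAX from 0.747 (interval 0.703 to 0.794) to 0.884 (interval 0.831 to 0.940). These ratios are of transcripts in 1 culture of each kind, and no protein was measured here. The parts of BAK1's differing locus, the joined MCL1 locus, ABALON and the unnamed locus over BCL2L1 in these ratios were not tested. How far such ratios shift for other genes was not computed.

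**Figure D3:**
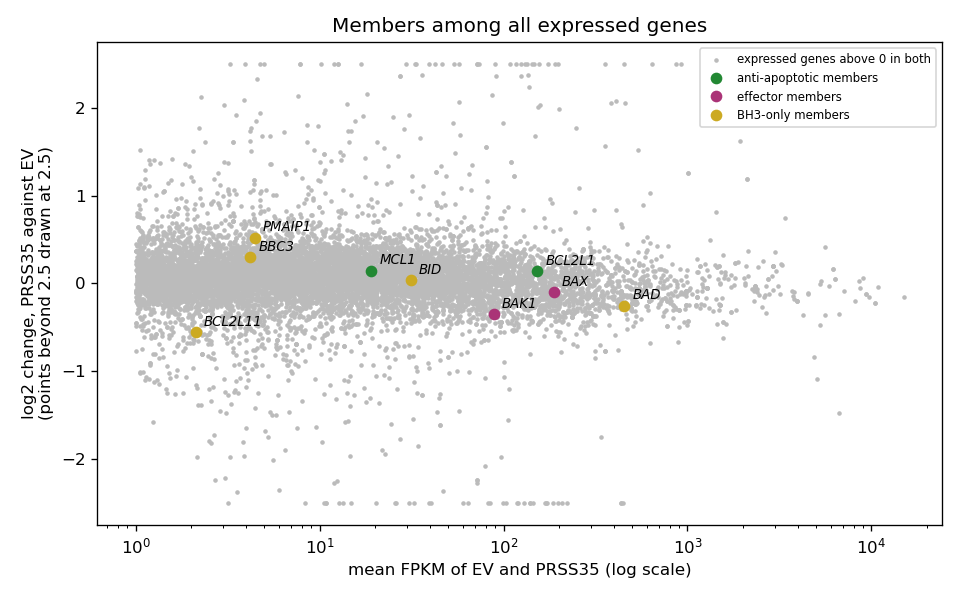
Log2 difference (pseudocount 1 FPKM) against mean FPKM (log axis) for expressed genes above 0 in both libraries (grey) and the 9 members (coloured by role). The members lie within the cloud at every level, with BCL2L11 at -0.56 and PMAIP1 at 0.52 farthest from 0.

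BAD dominated the BH3-only group. This gene encodes a protein that growth factor signalling keeps phosphorylated and away from BCL-XL. BAD was at 492.7 FPKM (interval 470.2 to 515.1) in EV and at 413.1 (interval 393.9 to 432.3) in PRSS35, at percentile 96.8 and 96.3, and made up 49.8% and 46.1% of the FPKM of all 10 members. The intervals did not overlap. The log2 difference was -0.25 (interval -0.35 to -0.16), or 0.46 after division by the total. Relative to BCL2L1, BAD moved from 3.39 (interval 3.19 to 3.61) to 2.58 (interval 2.43 to 2.74). In EV, the BAD locus shares 366 bases with that of GPR137 on the opposite strand. The shared bases in PRSS35 were not computed. The overlap is far larger in GENCODE, where BAD runs from 64037302 to 64052176 and GPR137 from 64037534 to 64056966. GPR137 was at 173.6 FPKM in EV and 153.5 in PRSS35, with a log2 difference of -0.18. The part of GPR137 in the value of BAD was not tested.

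BID, which caspase-8 cuts into its active form, showed no difference beyond its error on the deposited scale. It was at 30.9 FPKM (interval 29.1 to 32.8) in EV and at 31.7 (interval 29.8 to 33.7) in PRSS35. The log2 difference was 0.03 (interval -0.08 to 0.15), or 0.72 with intervals apart after division by the total. Its locus kept the annotated structure in both libraries. Without BAD, the 4 other BH3-only genes summed to 40.8 FPKM in EV and 43.4 in PRSS35, and their ratio to the anti-apoptotic genes was 0.250 (interval 0.234 to 0.266) and 0.241 (interval 0.226 to 0.256), which overlap.

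With the pseudocount of 1 FPKM, the low BH3-only genes PMAIP1 and BCL2L11 held the largest differences of the family, in opposite directions. At 5 FPKM they were at 0.30 and -0.24, and BAK1, at -0.34, differed more. PMAIP1 was at 3.47 FPKM (interval 2.94 to 3.99) in EV and at 5.40 (interval 4.75 to 6.05) in PRSS35. The intervals did not overlap, and the locus was annotated in both libraries. The log2 difference was 0.52 (interval 0.29 to 0.74), and without the pseudocount PRSS35 was at 1.56 times EV. BCL2L11 was at 2.71 FPKM (interval 1.89 to 3.54) in EV and at 1.52 (interval 1.17 to 1.87) in PRSS35. Its intervals missed each other by only 0.0106 FPKM. The log2 difference was -0.56 (interval -0.94 to -0.18), and without the pseudocount EV was at 1.78 times PRSS35. Among expressed genes, 11.5% differed by at least as much as PMAIP1 and 10.1% by at least as much as BCL2L11.

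The bounds of BCL2L11 correspond to about 42.9 fragments in EV and 75.2 in PRSS35, although its FPKM was higher in EV. Cufflinks assembled this locus in both libraries, with starts 925 bases apart. The part of this in the difference was not tested. The ratio of PMAIP1 to BCL2L11 was 1.28 (interval 0.908 to 1.80) in EV and 3.54 (interval 2.73 to 4.596) in PRSS35, the widest shift among the 11 ratios computed, with a log2 difference of 1.47 (interval 0.85 to 2.09). This pair was chosen after its values were seen. MCL1 relative to PMAIP1, which binds it, went from 5.22 (interval 4.44 to 6.14) to 3.73 (interval 3.27 to 4.27). Relative to BCL2L11, MCL1 went the other way, from 6.67 (interval 4.88 to 9.10) to 13.2 (interval 10.4 to 16.8).

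BBC3 (PUMA), a BH3-only gene induced by DNA damage like PMAIP1, was at 3.66 FPKM (interval 3.07 to 4.24) in EV and at 4.73 (interval 4.02 to 5.45) in PRSS35. The intervals overlapped, with a log2 difference of 0.30 (interval 0.04 to 0.55). Its locus was annotated in EV and assembled in PRSS35. Of 1115 expressed genes with this pairing and above 0 in both libraries, 76.8% had a higher value in PRSS35, with a median log2 difference of 0.16. The share was 56.9% among genes assembled in both and 65.2% among those annotated in both, and the part of assembly in the difference of BBC3 was not tested.

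The other genes of the pathway were read in 5 lists of 56 genes, 40 of which had a mean FPKM of at least 1. With the pseudocount of 1 FPKM, HTRA2 was the only gene of these 40 past 2-fold. At 0.1 FPKM BIRC6 also passed, at 2.39 times EV. HTRA2 is a mitochondrial protease that counteracts IAP proteins once released. It had no FPKM above 0 in EV and 26.3 FPKM (interval 24.7 to 28.0) in PRSS35. Its locus was assembled from the reads in both libraries, so the 0 in EV does not show that the gene was silent. No fold is given against a value listed at 0. The gene overlaps AUP1 in GENCODE, which was at 295.3 FPKM in EV and 236.5 in PRSS35. The parts of AUP1 and of assembly in the values of HTRA2 were not tested. Of the 39 others, 13 were higher and 6 were lower with intervals apart, and 20 overlapped. That is 48.7% apart, beside 40.6% of all expressed genes. Over all expressed genes, 25.1% were higher and 15.5% were lower with intervals apart. These shares are the background for the counts in each list below.

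**Figure D4:**
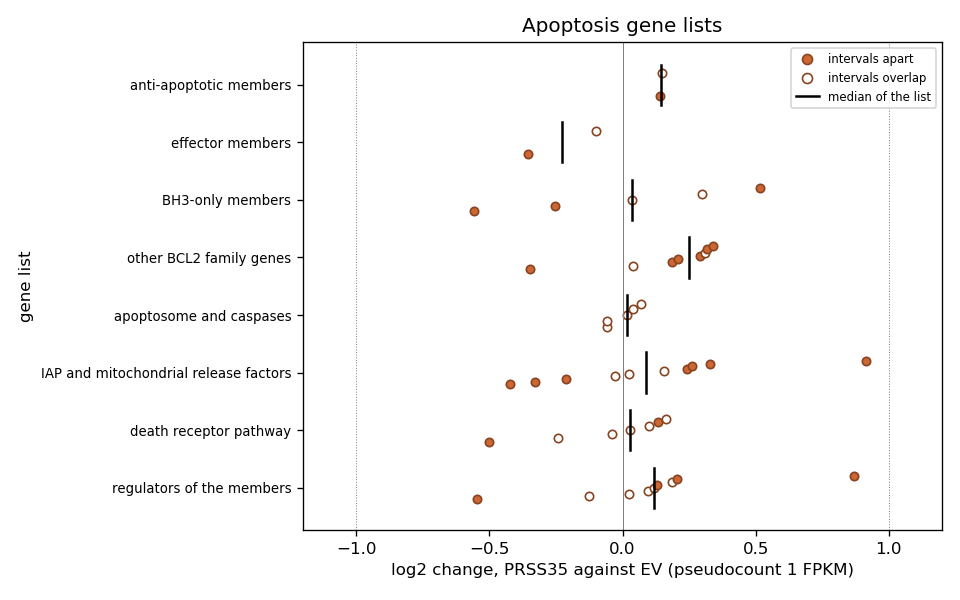
Log2 difference (pseudocount 1 FPKM) of each expressed gene above 0 in both libraries, by list, filled where the intervals of the libraries were apart, with the median of each list as a black line. The list medians lie between -0.23 (effector members) and 0.25 (other BCL2 family genes), and no point passes the dotted lines at 2-fold on this scale.

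Of the 13 other BCL2 family genes, 8 were expressed, with a median log2 difference of 0.25. A higher value in PRSS35 was seen for 7 of the 8, beside 60.2% of all expressed genes. Of the 8, 5 were higher with intervals apart (BCL2L2, BCL2L12, BCL2L13, BMF and BNIP3L) and 1 was lower (BOK). BCL2L12, a nuclear and cytosolic relative, was at 89.6 FPKM in EV and 103.6 in PRSS35. BOK, an effector-like protein kept low by degradation, was at 83.3 and 65.3, with a log2 difference of -0.35 that was close to that of BAK1. BCL2L2 (BCL-W), a further anti-apoptotic gene, was at 46.3 and 52.8 at a locus joined with PABPN1. BCL2A1, BCL2L14 and BIK were listed at 0 in both libraries. Loci of BCL2L14 and BIK were nevertheless assembled from the reads in both, so their 0 does not show that transcripts were absent.

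Downstream of the mitochondria, 8 genes of the apoptosome and caspases were read, and 5 of them were expressed. Their log2 differences ran from -0.06 to 0.07 with a median of 0.01, and the intervals overlapped for all 5. CASP9, the initiator caspase of this pathway, was at 14.1 FPKM in EV and 13.4 in PRSS35. CYCS, the gene of cytochrome c, was at 13.7 and 13.8, and the executioner CASP6 was at 6.87 and 6.56.

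In the list of IAP proteins and mitochondrial release factors, 10 genes were expressed and above 0 in both libraries, with a median log2 difference of 0.09, and intervals apart for 4 higher genes (BIRC5, BIRC6, AIFM1 and VDAC1) and 3 lower genes (BIRC2, DIABLO and VDAC2). DIABLO, which frees caspases from IAP proteins, was at 37.5 and 27.7 FPKM, and BIRC5 (survivin) was at 77.5 and 92.0. ENDOG, a mitochondrial nuclease, was at 237.8 FPKM in EV, at a locus joined with TBC1D13, and at 241.9 in PRSS35. The outer membrane channels VDAC1 and VDAC2 differed in opposite directions. VDAC1 was at 102.2 and 122.8, and VDAC2, which holds BAK1 in check, was at 114.6 and 98.8. Like BBC3, VDAC1 was quantified on an annotated locus in EV and an assembled one in PRSS35. Among expressed genes with this pairing and above 0 in both, 37.9% were higher and 5.47% lower with intervals apart. The part of assembly in the difference of VDAC1 was not tested. BIRC6, an IAP family ubiquitin ligase named after its value was seen, was at 1.48 FPKM in EV and 3.68 in PRSS35. Its log2 difference of 0.91 with the pseudocount stays under 2-fold, whereas the ratio without it was 2.48.

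The death receptor list had 7 of 10 genes expressed, with a median log2 difference of 0.03, and 1 gene was higher (FADD) and 1 lower (CFLAR) with intervals apart. The adaptor FADD was at 71.0 FPKM in EV and 78.0 in PRSS35, on the same pairing of an annotated and an assembled locus as BBC3 and VDAC1. The receptor TNFRSF1A was at 60.6 and 64.9, and its adaptor TRADD at 57.5 and 56.0. FAS and its ligand FASLG were listed at 0 in both libraries. CFLAR, a caspase-8 inhibitor named after its value was seen, was the lower gene, at 17.1 (interval 15.6 to 18.6) and 11.8 (interval 10.7 to 12.9).

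Of 12 regulators of the members, 9 were expressed, with a median log2 difference of 0.12, and 3 were higher (ATF4, AKT1 and YWHAB) and 1 was lower (E2F1) with intervals apart. Genes singled out in these lists only because their intervals were apart were named after their values were seen. ATF4, a stress factor that can induce PMAIP1, was at 383.1 FPKM in EV and 441.1 in PRSS35. AKT1, a kinase that phosphorylates BAD, was at 126.3 and 138.2. E2F1, a cell cycle factor, was at 134.1 (interval 117.1 to 151.1) and 91.6 (interval 89.4 to 93.8), on the same pairing of an assembled and an annotated locus as BAK1. AKT2 was at 136.4 and 125.1, but its bounds in PRSS35 span 0 to 38914 FPKM and give no usable error. YWHAB, which retains phosphorylated BAD in the cytosol and was named after its value was seen, was at 74.7 (interval 71.7 to 77.8) and 137.3 (interval 130.9 to 143.7).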

How the data were processed

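There is 1 RNA-seq library of PLC cells with EV and 1 of PLC cells over-expressing PRSS35. The authors aligned reads to hg19 with TopHat2 2.1.0 and deposited FPKM per locus with its lower and upper bound. The study's methods name Cufflinks 2.2.1, whereas the submitters' processing notes name Cuffdiff 2.2.1 and list the dm6 build beside hg19. The tables hold human chromosomes and loci assembled separately in each library. Whether FPKM were scaled between libraries is not given in the sources used here. The annotation release is not given in the sources used here, and no counts were used. Each name in a comma-joined locus took that locus's FPKM, rows of 1 name were summed, and 1 row per library with a failed status was left out. A gene was called expressed where the mean of its FPKM in EV and PRSS35 reached 1 (11115 of 26254). The log2 differences use a pseudocount of 1 FPKM, and a call needed 2-fold. The half-width of a bound was read as 2 SD and propagated. The square of 2 times FPKM over that half-width gives the fragments quoted, which are not counts. Members and lists were chosen with earlier results of these data known. Some genes first listed, and 1 list, are not reported here. All 10 members are named. Of each other list, genes past 2-fold and the 3 highest by mean FPKM are named, and others are marked. The alternatives were a pseudocount of 0.1 or 5 FPKM, division by the total FPKM of a library, upper quartile scaling, centring on the median, the highest row of a name, leaving out joined rows, a 1.5-fold threshold, no filter and a minimum of 5 FPKM. Starts were converted to count from 1. The calls were tested on simulated data. Python 3.11.15, numpy 2.4.6, pandas 2.3.3 and matplotlib 3.10.9 were used.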

Additional observations from a re-analysis of the deposited data

How the results depend on the processing

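After division by the total FPKM of each library, 1 member (PMAIP1, log2 difference 1.10) was higher by 2-fold in place of 0, the median of the members was 0.72 in place of 0.03 while that of all expressed genes was 0.68, and 8 members in place of 5 had intervals apart, all 8 higher. That is the construction of this scaling, which lifts all genes. No other alternative run moved the number of members past 2-fold from 0, and none moved the median of the members by more than their intervals. Of the 53 further values of single members, 53 moved by less than their own interval. Of these, the 9 with the highest row of a name and the 8 without joined rows could not move. Each member had a single row per library, so these values say nothing about stability. Over all expressed genes, the 303 higher and 276 lower became 192 and 162 at a pseudocount of 5 FPKM, 581 and 475 at 1.5-fold, 1254 higher with that division, 187 higher without joined rows and 169 lower with a minimum of 5 FPKM. With upper quartile scaling 5 members still had intervals apart, but 1 higher and 4 lower in place of 2 and 3 (BCL2L1 lost, BAX gained). MCL1 has no value without joined rows. No paired analysis was possible because there is only 1 library of either kind. Depth limits BCL2, which lies under 3 fragments in both libraries.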
